A study of Mus musculus with 12 samples.

Results

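The comparison described here is that of SphK2 knockout with wild-type mice, both kept on Western diet and sugar water. It uses 6 of the 12 libraries of the study, those of 3 male mice with a constitutive SphK2 knockout (labelled 221, 217 and 252 days old) and of 3 male wild-type mice (226, 226 and 232 days old), all on the C57BL6-NJ background. The other 6 libraries came from 3 knockout and 3 wild-type mice on control diet and normal water. Their labelled ages were 259, 253 and 250 days in knockout and 231, 231 and 232 days in wild-type mice. All 3 knockout mice there were older than all 3 wild-type mice, so on that diet age and genotype cannot be told apart. These libraries entered the shared estimate of spread and the test of whether the genotype difference depended on diet. They also gave a control-diet comparison as reference, and entered some alternative fits. Replicates 1 to 3 of each group are named in the order of the samples. A metabolic nCounter panel was measured in total RNA, a method that counts fluorescent barcodes hybridised to RNA, with no amplification step. Gene names were read for the 111 rows from A2m to Cat, of 736 in the table, a stretch chosen because its levels fit its names, and the other rows are not read as genes. All 111 names are mouse gene symbols in RefSeq.

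Sphingosine kinase 2 phosphorylates sphingosine to sphingosine-1-phosphate, a signalling lipid that leaves cells and travels in plasma on high-density lipoprotein, bound to apolipoprotein M. Liver is the main site of apolipoprotein synthesis, of the urea cycle and of ketone body formation. A Western diet with sugar is used in mice to produce a fatty, early inflamed liver, as in steatohepatitis. No tissue is named in the labels and the knockout is constitutive, so a difference cannot be assigned to a cell of origin. In such bulk RNA, fewer cells of a type and less RNA per cell cannot be told apart.

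No row was named Sphk2, so genotypes are those of the labels. Of the hepatocyte markers, 11 of 14 were among the 111 rows, and none of them was at the floor in all 6 libraries. Their summed normalized signal ranged over 412677 to 500443 in the knockout libraries, against 442516 to 491853 in the wild-type libraries. Of the 11, 2 had all knockout values above all wild-type values and 2 had all below. Wild-type replicate 3 was the shallowest library, with a recovered total of 1138914 counts against 1702816 to 1832344 in the other 5 Western-diet libraries. It had 27 of the 111 rows at 21, the lowest value listed, against 12 to 20 in the other 5. A value of 21 stands there for anything below 31.6, and in the others for anything below 21.1 to 23.7. Labelled diet durations were 22, 23 and 27 weeks in knockout and 18, 19 and 25 weeks in wild-type mice, while the protocol text gives 16 weeks. Over the 12 samples these durations increase by 1 week from each sample to the next in their listed order, so they repeat that order, and the label entered no fit. On control diet, knockout replicate 2 and wild-type replicate 2 each stood apart from the other 2 libraries of their label (values below). In the fit without covariates or weights they touch the results on Western diet through the spread alone.

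Among the 111 genes, none passed limma's test of genotype on Western diet after Benjamini-Hochberg adjustment over all 736 rows (threshold 0.05), where the share called over the whole table was 0.136%. At an unadjusted p under 0.05 there were 33 of the 111, 17 higher and 16 lower in knockout mice, which is 29.7%. Over all rows this share was 20.9% (12.4% higher, 8.56% lower). The 3 knockout values lay wholly above or below the 3 wild-type values in 29 genes (14 above, 15 below), which is 26.1%, near the 23.5% over all rows. An exact permutation test of 3 against 3 mice cannot go below p = 0.1 (two-sided), so single genes were judged by limma. The median log2 fold change was 0.00 over the 111 genes and 0.03 over all rows. Differences below are given as values, as log2 fold changes of knockout over wild type on the log2(value + 1) scale with limma's standard error (SE).

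The scale of the libraries bears on the direction of small differences. On average the median of a knockout library exceeded that of a wild-type library by 0.16 (log2), and centring each library on its median moves every fold change down by that amount. With centring, knockout values lay above wild-type values without overlap in 7 of the 111 genes and below in 36. Over all rows this split was 54 above (7.34%) and 203 below (27.6%) with centring, against 107 above (14.5%) and 66 below (8.97%) as deposited. Which scale is nearer to RNA per cell was not tested.

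**Figure D1:**
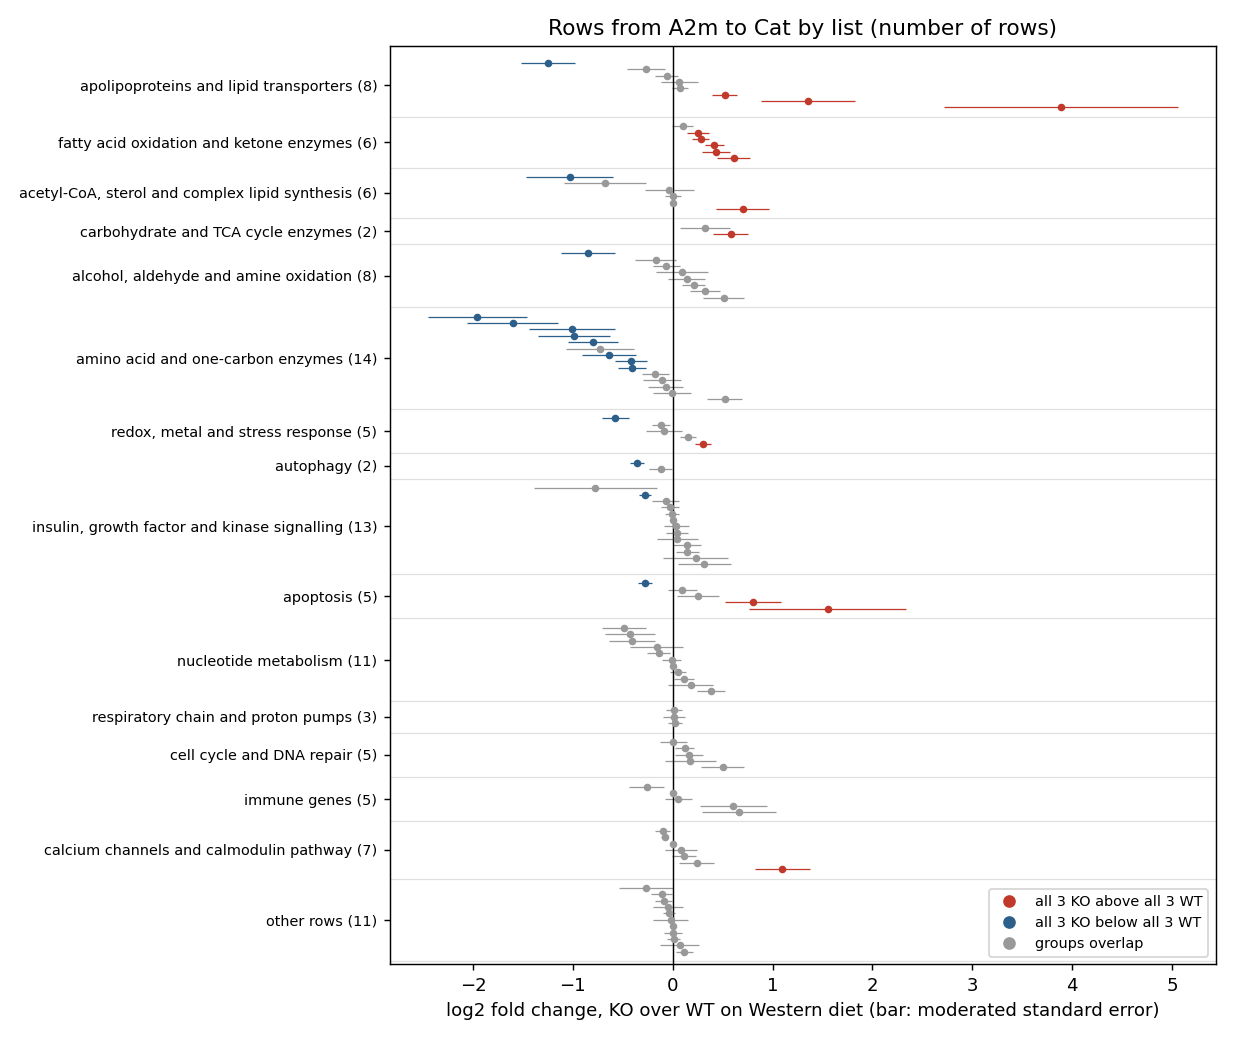
Log2 fold change of knockout over wild type on Western diet (x axis; bars are limma's standard errors) for the 111 rows from A2m to Cat, grouped by list (y axis, number of rows in brackets). Of 6 rows in the fatty acid oxidation list, 5 lie to the right of 0 without overlap of the groups. Of 14 in the amino acid list, 8 lie to the left without overlap. These shares over all 736 rows are 14.5% to the right and 8.97% to the left.

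Apolipoproteins gave the widest differences of the lipid genes, in both directions. Of the 8 measured, 3 had all knockout values above all wild-type values (Apoa4, Apoc2 and Apoe), 1 had all below (Apom) and 4 overlapped. Their median log2 fold change was 0.07. The shares over all rows were 14.5% above and 8.97% below without overlap. Apom, which binds sphingosine-1-phosphate in plasma lipoproteins, had normalized signals of 1899, 2208 and 2070 in knockout libraries, against 4100, 4866 and 5805 in wild-type libraries. The groups were well apart, with the lowest wild-type library 1.86 times the highest knockout library (log2 fold change -1.25 ± 0.27, adjusted p = 0.0824 by limma).

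Apoa4, carried by chylomicrons and high-density lipoprotein, had 39648, 19838 and 38929 in knockout libraries, against 2254, 1564 and 2662 in wild-type libraries. Knockout replicate 2 was the lowest of its group and still 7.45 times the highest wild-type library. Its log2 fold change was 3.89 ± 1.17 (adjusted p = 0.146 by limma), with an SE that includes the control-diet libraries, which ran from 2071 to 33899. Intestine also makes Apoa4 in abundance. The summed signal of 3 of 4 enterocyte markers was 69267, 48143 and 67351 in knockout libraries, against 29440, 26644 and 32668 in wild-type libraries. Apoa4 is among the 3 and itself sets these sums apart. Apob, which is also a hepatocyte marker, had 29587, 28265 and 28375 in knockout libraries, against 27159, 25044 and 29986 in wild-type libraries. Its groups overlapped. Aoc1, the marker of the 3 that is no apolipoprotein, had 32.2, 39.5 and 46.5 in knockout libraries, against 26.7, 35.3 and 21 in wild-type libraries (log2 fold change 0.51 ± 0.20, adjusted p = 0.213 by limma). It lay higher on average in knockout mice, with overlap and near the floor. The part of intestinal cells in this difference was not tested. Apoc2, the cofactor of lipoprotein lipase, had 9376, 6333 and 10925 in knockout libraries, against 4229, 2690 and 3384 in wild-type libraries (1.36 ± 0.47). As with Apoa4, knockout replicate 2 was nearest to the wild type. Apoe, a ligand of the low-density lipoprotein receptor family, had 91253, 99385 and 78267 in knockout libraries, against 63000, 66391 and 57512 in wild-type libraries (0.52 ± 0.12). Here knockout replicate 2 was the highest of the 6 libraries.

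The other apolipoproteins overlapped between genotypes. Apoa1, the main protein of high-density lipoprotein, had 79212, 68028 and 81166 in knockout libraries, against 73985, 109866 and 93596 in wild-type libraries (-0.27 ± 0.19). Its wild-type values were the more scattered. Apoa2, also of high-density lipoprotein, Apob, the scaffold of very-low-density lipoprotein, and Apoc3, an inhibitor of lipoprotein lipase, had log2 fold changes of 0.06 ± 0.19, 0.07 ± 0.08 and -0.06 ± 0.11. With median centring Apoa2 and Apob turned negative (-0.10 and -0.09).

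Enzymes of fatty acid oxidation and ketone formation were all on the higher side in knockout mice, by less than a doubling. Of 6 measured, 5 had all knockout values above all wild-type values and none had all below. Over all rows 14.5% lay above without overlap. The median log2 fold change of the 6 was 0.35 (-0.0027 on control diet), beside 0.03 over all rows (0.02 on control diet). Of all 736 rows, 409 had positive fold changes on Western diet. None passed the test (adjusted p = 0.0861 to 0.632 by limma). Acadl, which dehydrogenates long-chain acyl-CoA in mitochondria, had 3897, 3631 and 3318 in knockout libraries, against 2823, 3045 and 2292 in wild-type libraries (0.42 ± 0.10). Acat1, the mitochondrial thiolase that makes and breaks acetoacetyl-CoA, had 9881, 9618 and 7801 in knockout libraries, against 5712, 7595 and 4805 in wild-type libraries (0.61 ± 0.17). In both genes knockout replicate 3 and wild-type replicate 2 lay closest, and in Acat1 they were only 1.03-fold apart.

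Acot12, a cytosolic acetyl-CoA hydrolase, had 1628, 1709 and 1365 in knockout libraries, against 1266, 1340 and 1245 in wild-type libraries (0.28 ± 0.08). The gap was again narrow, at 1.02-fold between the nearest libraries. Acsf3 does not oxidise fatty acids but makes malonyl-CoA in mitochondria, and had 405, 346 and 329 in knockout libraries, against 294, 324 and 287 in wild-type libraries (0.25 ± 0.11). Acaa2, the thiolase that closes each turn of mitochondrial oxidation, overlapped between the groups (0.10 ± 0.11). With median centring none of the 6 genes kept groups without overlap, the median log2 fold change was 0.19 and Acaa2 turned to -0.06. So centred, 7.34% of all rows lay above without overlap, and the median over all rows was -0.13.

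Genes of lipid synthesis did not lie on 1 side. Acaca, the cytosolic acetyl-CoA carboxylase of fatty acid synthesis, had 1315, 1222 and 1897 in knockout libraries, against 914, 976 and 797 in wild-type libraries (0.70 ± 0.27). Acacb, the carboxylase at the mitochondrial surface whose malonyl-CoA restrains fatty acid import, had 367, 482 and 678 in knockout libraries, against 967, 900 and 567 in wild-type libraries (-0.68 ± 0.41). The groups of Acaca did not overlap, whereas knockout replicate 3 and wild-type replicate 3 of Acacb crossed.

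Acat2, the cytosolic thiolase at the entry to sterol synthesis, had 556, 604 and 610 in knockout libraries, against 1273, 1475 and 935 in wild-type libraries (-1.03 ± 0.44). The 3 knockout libraries were close together and the lowest wild-type library was 1.53 times the highest of them. None of these passed (adjusted p = 0.199 for Acaca, 0.372 for Acacb and 0.226 for Acat2, by limma). The other 3 members, the lipoxygenases Alox5, Alox12 and Alox15, had signals of at most 35.3 in the 6 libraries.

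**Figure D2:**
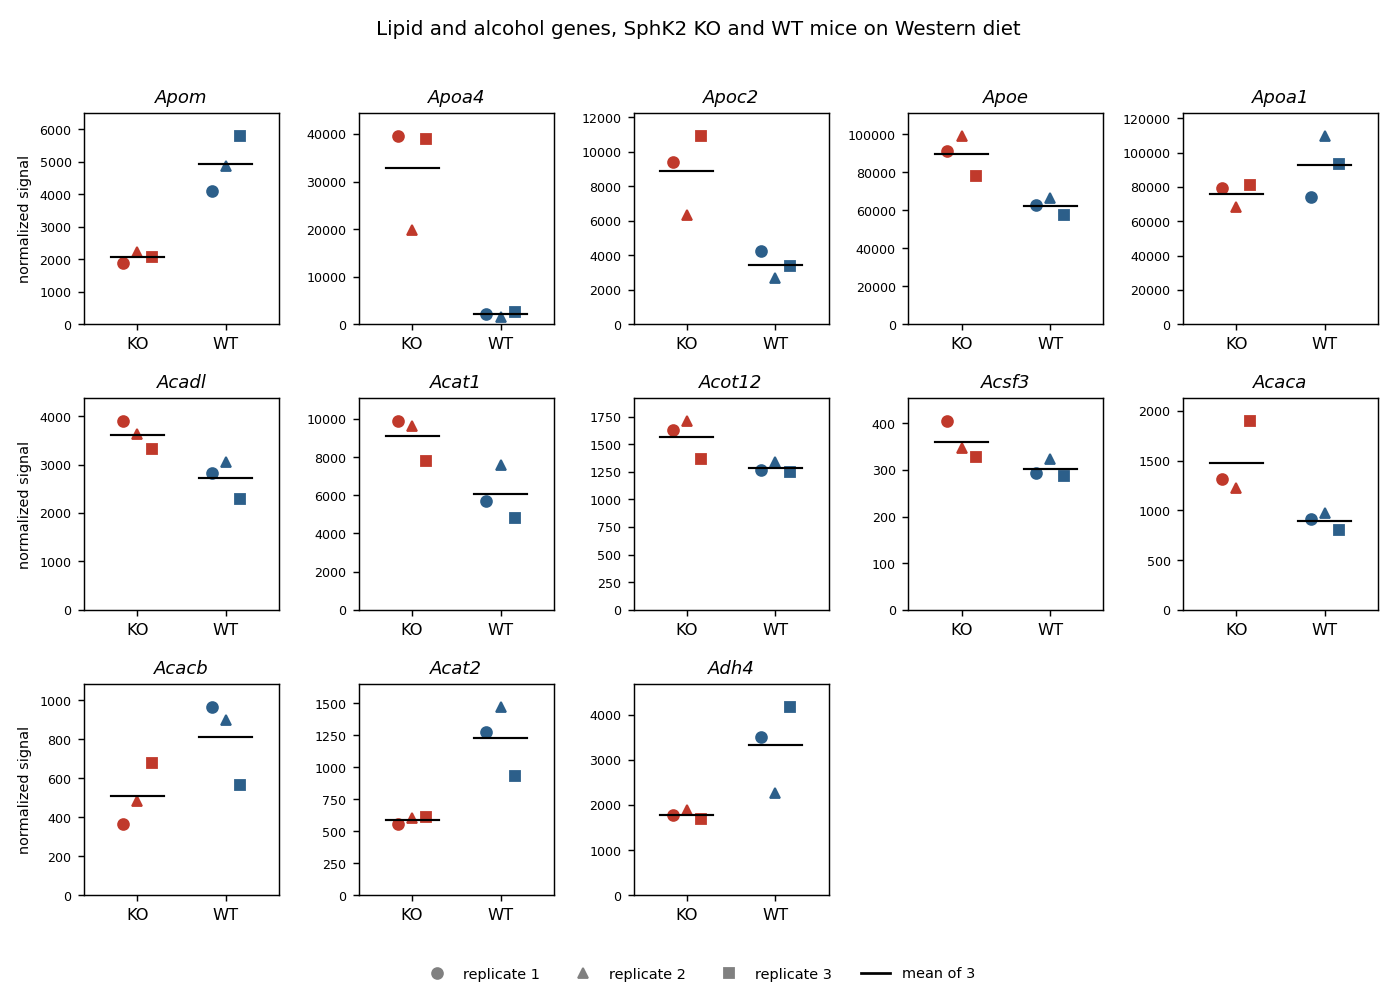
Normalized signal (y axis, from 0) of 13 lipid and alcohol genes in the 3 knockout (KO, left) and 3 wild-type (WT, right) libraries on Western diet, with the replicate as marker shape and the mean as a line. Apom is at 1899 to 2208 in KO and 4100 to 5805 in WT, Apoa4 at 19838 to 39648 in KO and 1564 to 2662 in WT.

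Of the sugar and alcohol genes, Aldoa, the aldolase of muscle and most other tissues, overlapped (0.32 ± 0.25). Adh4, an alcohol dehydrogenase that also oxidises retinol, had 1772, 1885 and 1696 in knockout libraries, against 3509, 2267 and 4179 in wild-type libraries (-0.85 ± 0.27, adjusted p = 0.155 by limma). Its knockout values were tight and its wild-type values wide. Adh1, the main ethanol-oxidising enzyme of liver, had -0.06 ± 0.14, and Aldh2, which clears acetaldehyde in mitochondria, 0.32 ± 0.15, both with overlap.

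Enzymes of amino acid and one-carbon metabolism lay lower in knockout mice as a list. Of 14 measured, 8 had all knockout values below all wild-type values and none had all above, with a median log2 fold change of -0.53 (-0.40 on control diet), and 13 of 14 fold changes were negative. Over all rows 8.97% lay below without overlap, the median was 0.03 (0.02 on control diet) and 275 of 736 fold changes were negative. None passed the test (adjusted p = 0.1 to 1 by limma). With median centring, which moves every fold change down by 0.16, the count below without overlap and the median were 9 of 14 and -0.69. Over all rows they were 27.6% and -0.13. The list was drawn up with earlier results of these data known. It leaves out Acy1, an aminoacylase among the rows in no list, whose groups overlapped (0.07 ± 0.19).

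Among the 8 were the 3 urea cycle enzymes Ass1, Asl and Arg1. Ass1, argininosuccinate synthase, had 17090, 25649 and 17199 in knockout libraries, against 33643, 33085 and 35492 in wild-type libraries (-0.80 ± 0.25). Asl, argininosuccinate lyase, had 2031, 3536 and 1973 in knockout libraries, against 5104, 4051 and 5337 in wild-type libraries (-0.99 ± 0.36). Arg1, the arginase that releases urea, had 10047, 15630 and 8394 in knockout libraries, against 16680, 15762 and 18868 in wild-type libraries (-0.64 ± 0.27). Knockout replicate 2 was the highest knockout library in all 3 genes, at 1.5, 1.77 and 1.7 times the mean of replicates 1 and 3, and it nearly touched the wild type in Arg1. Without it the log2 fold changes were -0.99 for Ass1, -1.26 for Asl and -0.89 for Arg1.

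In tryptophan breakdown, Acmsd, which diverts the kynurenine pathway from NAD synthesis, had 68.3, 91.4 and 121 in knockout libraries, against 339, 308 and 435 in wild-type libraries. The lowest wild-type library was 2.54 times the highest knockout library (-1.96 ± 0.50, adjusted p = 0.1 by limma). Afmid, which forms kynurenine, had 642, 1121 and 593 in knockout libraries, against 1092, 1435 and 1242 in wild-type libraries (-0.73 ± 0.34). Its groups overlapped through knockout replicate 2. Aadat, an aminotransferase for kynurenine and aminoadipate, showed no such separation (-0.07 ± 0.18).

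Agxt, the peroxisomal aminotransferase that removes glyoxylate, had 369, 525 and 267 in knockout libraries, against 700, 879 and 692 in wild-type libraries (-1.01 ± 0.43). Agxt2, a mitochondrial aminotransferase of other substrates, was the only positive member of the list, with 2204, 2177 and 1760 in knockout libraries, against 1306, 1769 and 1232 in wild-type libraries (0.52 ± 0.17). Its knockout replicate 3 and wild-type replicate 2 crossed by a small margin.

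Amdhd1, an enzyme of histidine breakdown, had 1840, 2301 and 2319 in knockout libraries, against 2954, 2917 and 2726 in wild-type libraries (-0.42 ± 0.16). Bhmt2, a methyltransferase that makes methionine from homocysteine, had 3928, 4382 and 3348 in knockout libraries, against 4905, 5097 and 5384 in wild-type libraries (-0.41 ± 0.14). Bhmt, the betaine-dependent enzyme of the same step, overlapped (-0.11 ± 0.19), as did Aspa, which hydrolyses N-acetylaspartate (-0.01 ± 0.19), and Aspg, an asparaginase (-0.17 ± 0.13).

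Atf4 and Asns belong to the integrated stress response: Atf4 is its main transcription factor, and Asns, asparagine synthetase, is a target that ATF4 is known to activate in human and mouse cells through a C/EBP-ATF response element in the promoter. The 250 bases before the start of each gene (RefSeq, GRCm38.p6) are shown because both genes had all knockout values below all wild-type values. Capitals mark matches to the core of such elements, searched as TGATGNAA on both strands with N for any base. The Asns window is chr6:7693210-7693459, minus strand, and the Atf4 window chr15:80254934-80255183, plus strand.
Asns: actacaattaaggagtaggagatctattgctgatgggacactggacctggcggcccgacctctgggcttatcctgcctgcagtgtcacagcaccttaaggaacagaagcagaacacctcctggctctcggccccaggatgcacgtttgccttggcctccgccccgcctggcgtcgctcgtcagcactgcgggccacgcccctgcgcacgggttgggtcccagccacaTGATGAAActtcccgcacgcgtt
Atf4: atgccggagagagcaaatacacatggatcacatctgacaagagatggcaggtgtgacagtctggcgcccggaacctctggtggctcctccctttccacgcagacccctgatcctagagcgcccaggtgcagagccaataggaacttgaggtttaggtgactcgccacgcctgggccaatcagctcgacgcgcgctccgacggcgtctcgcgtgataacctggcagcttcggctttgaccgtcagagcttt
The Asns window holds 1 match, TGATGAAA, which begins 23 bases before the start, and the Atf4 window holds none of these letters. The motif was present in 1056 of 27025 genes with a window (3.91%) and in 4 of the 89 genes with one among the 111 (4.49%): Acsf3, Akt2, Apoe and Asns. A match is a description of the sequence and not a binding site.

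Atf4 had 1090, 1009 and 1151 in knockout libraries, against 1546, 1597 and 1693 in wild-type libraries (-0.57 ± 0.14, adjusted p = 0.0861 by limma). Both groups were narrow and the lowest wild-type library was 1.34 times the highest knockout library. Asns was listed at 21 in all 3 knockout libraries, against 79.2, 29.6 and 120 in wild-type libraries. Its fitted log2 fold change of -1.60 ± 0.46 rests on that floor and was -1.05 with every value raised to at least 32. Wild-type replicate 2 lay close to the floor, and with values so raised it ties with the knockout libraries. Asns is the eighth of the amino acid genes without overlap as deposited, and is not without overlap with values so raised. Among the other redox and stress genes, Atox1, a copper chaperone, had 1695, 1526 and 1622 in knockout libraries, against 1433, 1345 and 1156 in wild-type libraries (0.30 ± 0.08), without overlap. Cat, the peroxisomal catalase, and Atf7, a transcription factor of the same family as Atf4, overlapped (-0.09 ± 0.18 and 0.16 ± 0.08).

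**Figure D3:**
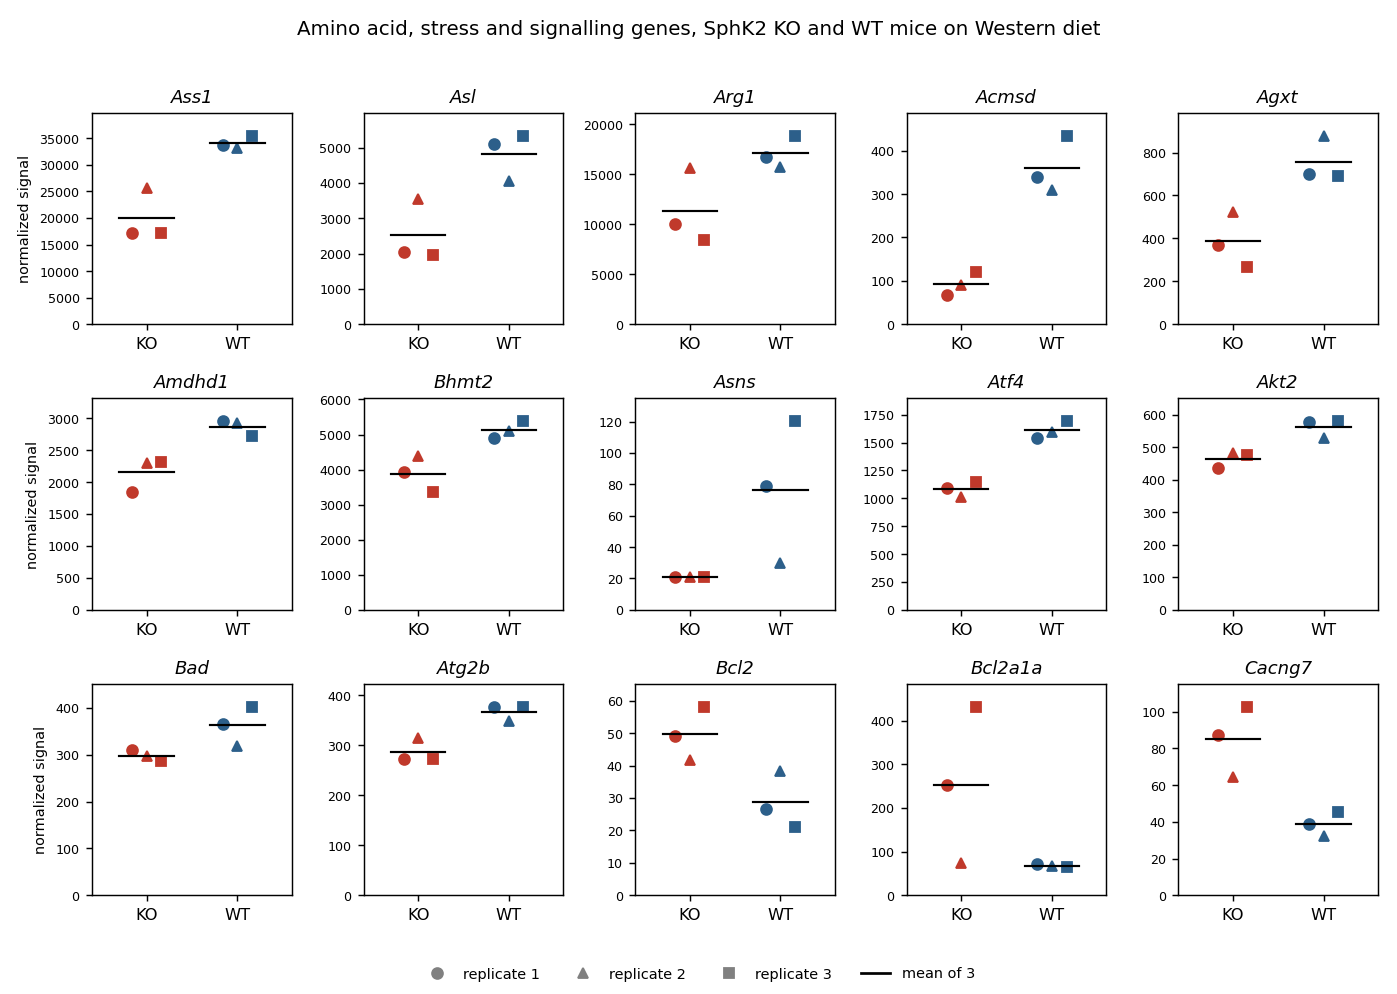
Normalized signal (y axis, from 0) of 15 amino acid, stress, signalling and apoptosis genes in the 3 knockout (KO, left) and 3 wild-type (WT, right) libraries on Western diet, with the replicate as marker shape and the mean as a line. Acmsd is at 68.3 to 121 in KO and 308 to 435 in WT, and Asns at the floor of 21 in all KO libraries.

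The list of insulin, growth factor and kinase signalling had a median log2 fold change of 0.04. Of its 13 genes, 1 had groups without overlap, against 23.5% over all rows. That gene was Akt2, the Akt kinase that carries insulin's signal in liver, fat and muscle, with 435, 482 and 477 in knockout libraries, against 579, 528 and 580 in wild-type libraries (-0.27 ± 0.06, adjusted p = 0.0824 by limma). Its paralog Akt1 overlapped (-0.07 ± 0.14). Braf, a kinase of the MAP kinase cascade, had 150, 63.2 and 75.6 in knockout libraries, against 148, 148 and 165 in wild-type libraries (-0.77 ± 0.61). Knockout replicate 1 was at the wild-type level and the other knockout libraries well below it.

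Bad, a pro-apoptotic protein that Akt phosphorylates, had 309, 298 and 287 in knockout libraries, against 366, 320 and 403 in wild-type libraries (-0.28 ± 0.07, adjusted p = 0.111 by limma). The groups were only 1.03-fold apart. Bcl2, which opposes such proteins, had 49.2, 41.8 and 58.2 in knockout libraries, against 26.7, 38.2 and 21 in wild-type libraries (0.80 ± 0.28). All knockout values were higher, but wild-type replicate 3 was at the floor, and with values raised to at least 32 the log2 fold change was 0.52. Bcl2l1, another anti-apoptotic member, overlapped (0.25 ± 0.21).

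Autophagy was represented by 2 genes. Atg2b, which moves lipid to the growing autophagosome, had 272, 315 and 272 in knockout libraries, against 376, 348 and 377 in wild-type libraries (-0.36 ± 0.07, adjusted p = 0.0824 by limma), without overlap. Atg101, a subunit of the kinase complex that starts autophagy, overlapped (-0.12 ± 0.12).

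Bcl2a1a and Btk, genes of blood cells, were high in some knockout libraries and not in others. Bcl2a1a, an anti-apoptotic gene of white blood cells, had 253, 74.5 and 432 in knockout libraries, against 71.9, 67.8 and 64.7 in wild-type libraries (1.55 ± 0.78, adjusted p = 0.306 by limma). The log2 fold change was 2.27 without knockout replicate 2 and 1.00 without knockout replicate 3. Mice carry near-identical copies of this gene, so its signal may be shared with them. Btk, a kinase of B cells and myeloid cells, had 34.2, 21 and 63 in knockout libraries, against 21, 24.8 and 21 in wild-type libraries.

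In both genes knockout replicates 1 and 3 were the high libraries and replicate 2 lay at or near the wild-type level. The summed signal of the 5 measured immune markers, of 13 fixed, was 364, 158 and 591 in knockout libraries. In wild-type libraries it was 159, 156 and 149. Bcl2a1a, given above, makes up most of the difference between the high knockout sums and the wild-type sums. The other markers lay at 21 to 63, near the floor, and Blk was at 21 in all 6 libraries. Replicate 2 was the knockout library nearest to the wild type in Apoa4, Apoc2, Apom, Ass1, Asl and Arg1 as well, but not in Apoe or Acmsd. The part of immune cells in those differences was not tested.

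Cacng7, a calcium channel and glutamate receptor subunit, had 87.4, 64.3 and 103 in knockout libraries, against 38.7, 32.5 and 45.1 in wild-type libraries (1.10 ± 0.27, adjusted p = 0.0982 by limma), without overlap. The other 6 rows of its list overlapped. In the remaining lists no gene had groups without overlap, namely in nucleotide metabolism (11 rows, median log2 fold change -0.01), respiratory chain and proton pumps (3 rows, 0.01), cell cycle and DNA repair (5 rows, 0.16), immune genes (5 rows, 0.06) and the 11 rows in no list (-0.02). Atp5d, an ATP synthase subunit, had 4108, 4479 and 3803 in knockout libraries, against 4275, 3939 and 3962 in wild-type libraries. Brca2, of DNA repair, Ampd3, an AMP deaminase, and Ak5, an adenylate kinase, had log2 fold changes of 0.50 ± 0.22, 0.38 ± 0.14 and -0.49 ± 0.22 at signals of 21 to 45.6, near the floor.

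**Figure D4:**
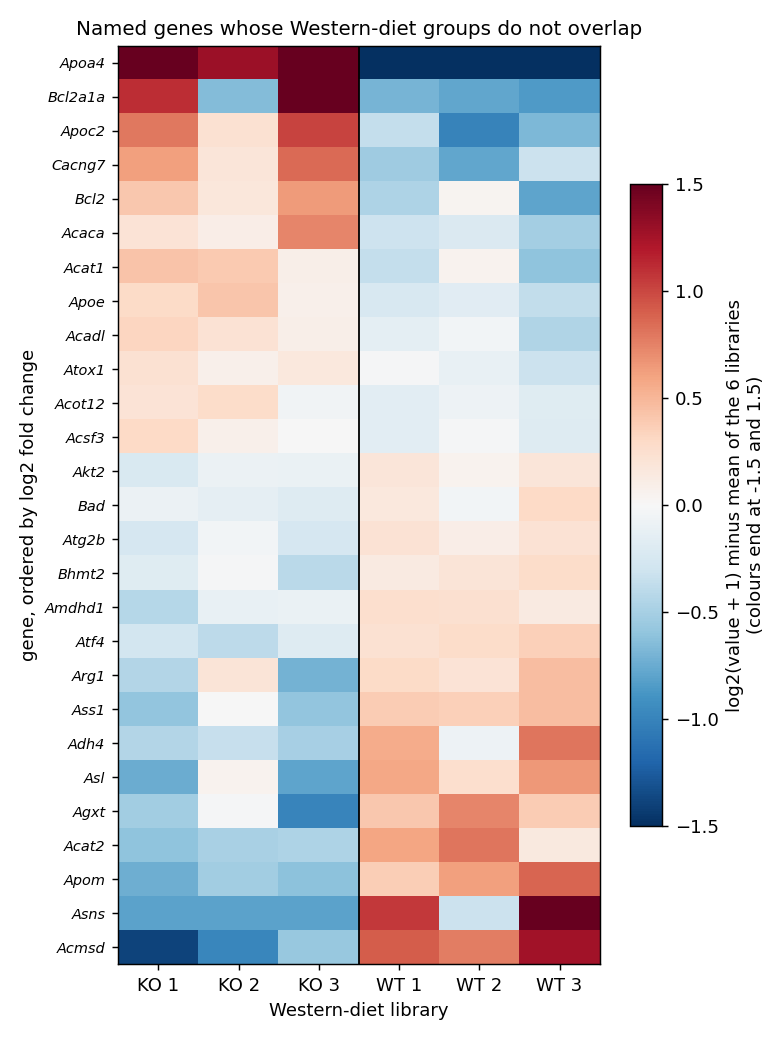
Of the 29 genes whose groups did not overlap on Western diet, the 27 named in the text (y axis, ordered by log2 fold change) in each knockout (KO) and wild-type (WT) library (x axis). Colour is log2(value + 1) minus the mean of the 6 libraries, and KO 2 is nearer to the WT colours than KO 1 and KO 3 in Bcl2a1a, Apoc2, Ass1, Asl and Arg1.

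Libraries of a group were not equally close to each other. Among 78 of the 111 genes with a mean signal above 50 on Western diet, the highest and lowest library differed by more than 2-fold in 3 genes in knockout mice, Bcl2a1a and Braf among them, and in 0 in wild-type mice. The median SD within a group was 0.18 (log2) in knockout and 0.16 in wild-type libraries. Knockout replicate 1 differed from the mean of the other 2 by over 0.5 (log2) in 4 genes, knockout replicate 2 in 15 and knockout replicate 3 in 14. The same count was 0, 5 and 8 in wild-type replicates 1, 2 and 3. In the 29 genes without overlap, the knockout library nearest to the wild type was replicate 2 in 16 and replicate 3 in 10, and the wild-type library nearest to the knockout was replicate 2 in 17.

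On control diet, 12 of the 111 genes had groups without overlap, which is 10.8%, against 6.66% of all rows. Limma called 0 of 736 rows there, with 4.76% of rows and 6 of the 111 genes at an unadjusted p under 0.05. With all control-diet libraries kept, only Atox1 of the 29 above was among the 12, higher in knockout mice on both diets. Apom had 2039, 3108 and 1975 in knockout libraries on control diet, against 4080, 2005 and 2947 in wild-type libraries. Ass1 had 16828, 23652 and 15462 in knockout libraries on this diet, against 30160, 20159 and 36167 in wild-type libraries. Acmsd had 101, 149 and 111 in knockout libraries, against 233, 69.2 and 310 in wild-type libraries. In each of these, replicate 2 of one genotype lay on the side of the other genotype's replicates 1 and 3, or between the groups.

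Apoa4 showed this most widely, with 33899, 2685 and 25298 in knockout libraries on control diet, against 2071, 27043 and 2208 in wild-type libraries. The same held for Bcl2a1a, with 442, 77 and 370 in knockout libraries, against 64.5, 143 and 63.5 in wild-type libraries. For both genes these 2 libraries go against the other libraries of their label. An exchange of labels between them was not tested, and the control-diet values, overlap counts and interaction given here hold for the labels as they stand. Without these 2 libraries, 64 of the 111 genes (57.7%) had control-diet groups without overlap, against 58.6% of all rows. Of the 29 genes without overlap on Western diet, 19 (65.5%) then separated the same way on control diet. However, 2 against 2 libraries separate more easily than 3 against 3. The interaction called 0 of 736 rows without them, with 45 rows at an unadjusted p under 0.05. With both left out, chosen by their values, limma called 37 of all rows (5.03%) on Western diet and 10 of the 111 genes (9.01%): Acat2, Acmsd, Apoa4, Apoc2, Apoe, Apom, Ass1, Atf4, Atg2b and Cacng7. With only the 6 Western-diet libraries fitted, it called 0.

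**Figure D5:**
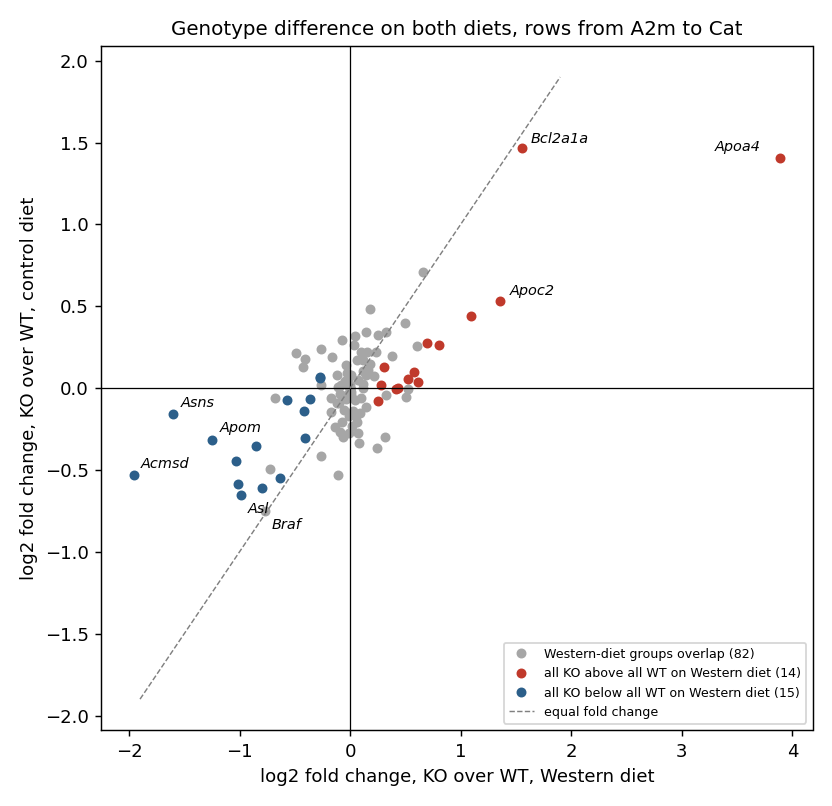
Log2 fold change of knockout over wild type on Western diet (x axis) and on control diet (y axis) for the 111 rows from A2m to Cat, with the 29 rows without overlap on Western diet in colour and equal fold changes dashed. Apoa4 is at 3.89 on Western and 1.41 on control diet, and Bcl2a1a at 1.55 and 1.46.

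Whether the genotype difference on Western diet differed from that on control diet was tested as an interaction. No row passed (0% of 736 rows by limma, with 5.98% of rows and 10 of the 111 genes at an unadjusted p under 0.05). The smallest p among the 111 were those of Akt2 (difference of log2 fold changes -0.34 ± 0.08), Bad (-0.34 ± 0.10), Atg2b (-0.29 ± 0.10), Acadl (0.42 ± 0.14) and Apoe (0.47 ± 0.18), with adjusted p of 0.46 to 0.742. On control diet Akt2 had 517, 515 and 571 in knockout libraries, against 520, 492 and 515 in wild-type libraries. Bad had 309, 312 and 312 in knockout libraries on that diet, against 295, 287 and 312 in wild-type libraries. None of the genes above is therefore shown to depend on diet in its genotype difference.

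Of the 625 rows after Cat, whose names are not read as genes, 144 had groups without overlap on Western diet (23.0%). The single row that passed limma's test lies in this part of the table and is named Zfp65. It rose in knockout mice, with 404, 429 and 401 in knockout libraries, against 318, 338 and 335 in wild-type libraries (0.32 ± 0.04, adjusted p = 0.0292). It did not pass with library medians centred (0.15, adjusted p = 0.419), with only the 6 Western-diet libraries (adjusted p = 0.0685), with rows limited to those above 21 in at least 3 libraries (adjusted p = 0.0862) or with age as a covariate (adjusted p = 0.0719). It also did not pass without any single Western-diet library other than wild-type replicate 2, or without control-diet knockout replicate 3, wild-type replicate 1 or wild-type replicate 3.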

How the data were processed

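Per the labels' protocols, total RNA was prepared with Trizol and hybridised to barcoded probes of a metabolic nCounter panel. The authors deposited a normalized signal per row and library, and its software, reference genes and background step were not given in the sources used here. Recovered totals come from dividing each library's signals by the step between them: of signals over 21 and under 3000, 100% lay within 0.1 of a multiple. With counts below 21 hidden, a count model was not fitted.

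Groups came from the labels. Values were tested as log2(value + 1) with limma 3.58.1 in R 4.3.3 (lmFit, eBayes), 4 group means over 12 libraries with 8 residual degrees of freedom, and adjusted by Benjamini-Hochberg over 736 rows. Nothing in the labels beyond ages and titles shows that samples were separate animals, so p-values measure the spread between these samples. The fit was tested on simulated data. Alternatives were median centring, a filter on low values, another pseudocount, a raised floor, variance trend, array weights, Western-diet libraries alone, age as a covariate and leaving out libraries. The genes, lists and rules were chosen with earlier results of these data known. Named were all apolipoproteins, the rows without overlap (up to 15 each way by p), up to 4 genes of smallest p and the highest of each list, and the 5 of smallest interaction p. Acaa2, Aadat, Afmid, Aspa, Aspg, Akt1 and rows at the floor were added to complete lists, and Zfp65 as the row called. Acy1 was added as an aminoacylase outside the amino acid list, and its values under the alternatives are not given. Some genes the rule takes are given only in their list's counts, and some are not reported here. Promoter windows and gene symbols are from RefSeq (GRCm38.p6).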

Additional observations from a re-analysis of the deposited data

How the results depend on the processing

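The 27 named genes whose groups did not overlap kept their direction under all alternatives run, and no gene from A2m to Cat passed except where stated. The count over all rows was 1, and 0 with median centring, with rows above 21 in at least 3 libraries, with only the 6 Western-diet libraries and with age as a covariate. Leaving out single libraries gave 0 to 21 over all rows, 0 to 6 from A2m to Cat, and 33 to 43 genes without overlap. It was 21 (6 from A2m to Cat: Acmsd, Apoe, Apom, Atf4, Atg2b and Cacng7) without control-diet wild-type replicate 2, 15 (6: Acadl, Acat1, Akt2, Asns, Atg2b and Bad) without Western-diet wild-type replicate 2, and 4 (0) without control-diet knockout replicate 2. Array weights gave 326 and 52, and 331 and 53 when estimated, after the data were seen, from rows above 21 in at least 3 libraries. The estimation stopped before it converged and gave Western-diet knockout replicate 1 a weight of 7.45 and replicate 2 one of 0.34. Leaving out both control-diet replicates 2, also chosen later, gave 37 and 10, and left 64 genes from A2m to Cat without overlap on control diet, against 12 with all libraries. The cause of these changes was not tested. The interaction count was 0 to 1 without single libraries.

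The named genes below, all with overlapping groups, turned direction in some settings. With median centring Apoa2 had -0.098, Apob -0.090, Acaa2 -0.063, Atf7 -0.0063 and Atp5d -0.14. With either set of array weights Bhmt had 0.045 and 0.046, Ak5 0.14 and 0.15 (against -0.49 with equal weights), and Atp5d -0.030 and -0.031. With age as a covariate Aspa had 0.0041. Leaving out single libraries gave Apoa2 -0.063 to 0.22, Apoc3 -0.22 to 0.047, Aadat -0.18 to 0.0015, Bhmt -0.25 to 0.082, Aspa -0.16 to 0.093, Cat -0.21 to 0.050, Akt1 -0.15 to 0.015, Atp5d -0.037 to 0.081 (log2 fold changes). The labels give no replicate numbers. No paired analysis was possible because the replicate numbers follow sample order and pair nothing. Signals near 21 limit Asns, Bcl2, Btk, Ak5, Ampd3 and Brca2.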
